A study of Mus musculus with 10 samples.

Results

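Nrn1, Gas6, Npl and Zfp503 are 4 genes whose RNA gave much more signal in small intestinal organoids that had lost Lgr4 and Lgr5 than in wild type organoids, without such a gain in crypts of mice that had lost both receptors. They were chosen by that pattern, in the Cy5 signals of the organoid arrays and the ratios of the crypt arrays, so their values in those comparisons are a description and carry no p-value. Every probe that the array files name for these genes was taken, which gave 4 of 28034 gene names and 4 of 41174 gene probes, 1 probe on 1 spot for each gene. The comparison that the choice did not use is the withdrawal of R-spondin from normal organoids.

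The data came from 10 Agilent 2-colour mouse arrays of 45018 spots. The organoids, miniature gut epithelia grown from crypts, were kept in medium with EGF, Noggin and R-spondin. The 2 wild type cultures came from VillinCre_wt small intestine and are labelled with tamoxifen induction for 1 day. The 2 deleted cultures came from VillinCre_Lgr4fl/fl-Lgr5fl/fl small intestine at day 1 of deletion of both receptors, and their own labels do not name tamoxifen. Villin drives Cre in the gut epithelium, and the labels of both groups name VillinCre. Because wild type and deleted cultures came from mice of different genotype, differences between the mice and the deletion cannot be told apart. The labels do not say how many mice or organoid lines the cultures came from, so the spread between them may be technical in part. For the withdrawal, 1 culture was kept without R-spondin (EN) and 1 with it (ENR) for 1 day after splitting, with no genotype given. All 6 organoid arrays held the culture's RNA in Cy5 and a Stratagene mouse reference RNA in Cy3. The crypts were isolated from AhCre_Lgr4fl/fl_Lgr5 fl/fl mice 1 day after induction, with the Cre written as P450Cre in the extraction notes, and from wild type controls whose Cre status and treatment are not given. Deleted and wild type crypt RNA shared an array, in 2 biological replicates with 2 dye-swapped arrays each.

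Lgr4 and Lgr5 are receptors for R-spondins. When bound, they hold back the ubiquitin ligases Rnf43 and Znrf3, which otherwise clear Wnt receptors from the cell surface, so loss of the receptors and loss of R-spondin both lower Wnt signalling in the crypt. The 4 genes do different work. Nrn1 encodes neuritin, a small GPI-anchored protein known for promoting neurite outgrowth. Gas6 encodes a secreted vitamin K dependent ligand of the TAM receptors Tyro3, Axl and Mertk. Npl encodes N-acetylneuraminate pyruvate lyase, which splits sialic acid. Zfp503 encodes a zinc finger repressor of the NET family.

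Each value below rests on a single 60-base probe, so the probes are shown first. All 4 lie on the minus strand, and their positions are those the array files give on mm9. The Nrn1 probe, A_51_P308844, covers chr13:36817941-36818000. The Gas6 probe, A_51_P172054, covers chr8:13465444-13465503. The Npl probe, A_51_P429212, runs over 5614 bases of genome from chr1:155350652-155356265 and therefore spans a gap between aligned blocks. The Zfp503 probe, A_51_P126626, covers chr14:22803259-22803318. Exons and untranslated regions at these positions were not assigned here, since the gene table used gives gene bounds only, and on another build (GRCm38.p6). On that build the genes lie at chr13:36725622-36734477 (Nrn1), chr8:13465374-13494535 (Gas6), chr1:153503016-153549714 (Npl) and chr14:21983959-21989601 (Zfp503). The first 30 bases are printed for Nrn1, Gas6 and Zfp503 and all 60 for Npl, with no part in capitals.
Nrn1: acgtgggaatcagccggtgaataatcatgc
Gas6: tgggctagaggggctggcagtttgcagcag
Npl: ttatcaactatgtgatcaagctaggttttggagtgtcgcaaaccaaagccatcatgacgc
Zfp503: taactatttttaatttttaagtccacccgc

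The probes were of ordinary base composition for this array. Their GC content was 45% for Nrn1 and Gas6, 43.3% for Npl and 40% for Zfp503, where the median of all 41174 probes was 40%, with quartiles at 35% and 45%.

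The arrays of the organoid deletion differed between their colours. In Cy5, 46.9% to 50.7% of gene spots were well above background, the scanner software's own call, and in Cy3 3.66% to 4.26%. The Cy3 negative controls on these 4 arrays had medians of 5883 to 6564, against 90 to 117 on the other 6 arrays. Changes in Cy5 are therefore given first and ratios to the reference second. In the library check, the Lgr4 probe A_52_P276727 gave Cy5 signals of 2035 and 2846 in wild type and 198 and 355.5 in deleted organoids, while another Lgr4 probe, A_52_P278566, differed by 0.14 on the log2 scale. Lgr5 gave 1004 and 1591 in wild type and 108 and 118.5, not above background, in deleted organoids. In crypts the same Lgr4 probe had log2 ratios of -1.51 and -1.61 in the 2 replicates and Lgr5 had -1.89 and -1.48, where the Lgr4 difference in organoids was -3.57. Intestinal epithelium markers were well above background in every organoid culture, 10 of 10. Of 10 stroma and muscle markers, 6 were above background in all wild type and in all deleted cultures, and Des, Lum, Myh11 and Pdgfra were not above it in any. The summed normalised Cy5 level of the 9 that could be summed was 6266 to 6697 in wild type and 5527 to 7245 in deleted cultures. For the withdrawal cultures, normalised apart, 9 of the 10 were above background with R-spondin and 8 without it. There 9 could be summed, to 15200 with and 16870 without R-spondin. Of 10 macrophage and T cell markers, Adgre1, Cd3d, Cd8a, Gzma and Ptprc were not above background in any of the 4 wild type and deleted cultures. The summed level of all 10 was 44550 to 120700 in wild type and 46090 to 81730 in deleted cultures. In the withdrawal set, normalised apart, 8 of the 10 could be summed, to 1957 with and 1993 without R-spondin. Which markers carry these sums was not separated. Endothelium had 1 of 6 markers above background in wild type and in deleted cultures, at 501.9 to 524.3 and 473.4 to 512.2. By Cy5 in deleted organoids the median log2 difference was -1.13 over 3 stem cell markers, -0.64 over 3 Paneth markers, 0.40 over 4 goblet markers, 0.55 over 3 enterocyte markers, -0.50 over 3 enteroendocrine markers and -0.25 over 3 tuft markers. The part of such cells in the values below was not tested.

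Nrn1 had the largest increase of all 18648 probes tested in Cy5. The wild type cultures gave raw signals of 241.5 and 176, against 7590 and 5017 in the deleted ones. Both deleted cultures were far above both wild type cultures, which were themselves above background. After normexp background correction and quantile normalisation the log2 difference was 4.98 (SE 0.34, n = 2 and 2), or 31.6-fold. Slides 4 and 5 each carried 1 wild type and 1 deleted culture, and the differences within them were 5.20 and 4.76. The share of gene spots on the same array that were dimmer went from 64.4% and 59.7% in wild type to 95.1% and 92.4% in deleted cultures.

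Gas6 was already well expressed in wild type organoids and was the fifth in order of increase. Its raw signals were 926 and 695 in wild type and 9495 and 8544 in deleted cultures. The groups did not overlap, and the 2 cultures of each group lay close together. The log2 difference was 3.35 (SE 0.25, n = 2 and 2), or 10.2-fold, with 3.39 and 3.30 within the slides. Of the 4 genes it had the smallest difference between the deleted cultures, 0.40 on the log2 scale.

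Npl was dimmer throughout. It gave 181 and 154 in wild type and 1228 and 785.5 in deleted cultures. All 4 spots were above background, and the groups did not overlap. Npl ranked 11 of 18648 by its log2 difference of 2.76 (SE 0.35, n = 2 and 2), or 6.77-fold. Within the slides it was 3.11 and 2.41.

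Zfp503 was not well above background in the wild type cultures, at 100 and 98.5. In the deleted cultures it gave 719 and 386, both above background. Averaged over the 2 deleted cultures, its normalised level was 5.17-fold the lowest signal that was above background on the wild type arrays. That call is made spot by spot, so a spot without it can be brighter, and the 5.17 is no strict bound. The fitted log2 difference of 2.88 (SE 0.40, n = 2 and 2; 3.50 and 2.26 within the slides, rank 9) depends on how background is subtracted and is no bound. The probe passed the filter on dim probes only through the deleted group, where it was high. Its rank and its place among tested probes are therefore a description.

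**Figure D1:**
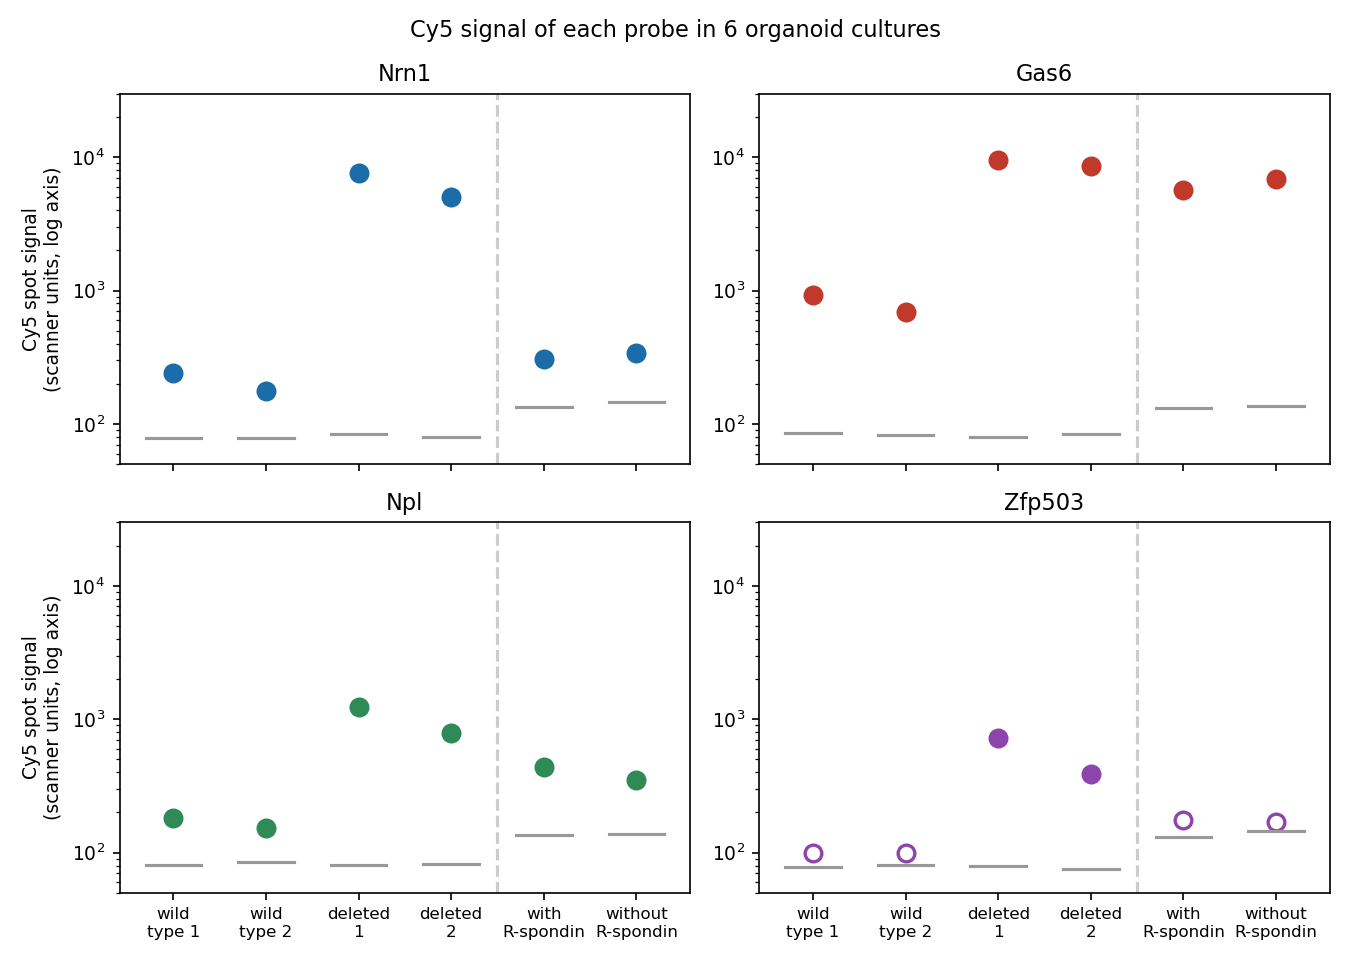
Cy5 spot signal (scanner units, log axis) of the 1 probe of each gene in 6 organoid cultures; grey bars are the local background of the spot and open circles are spots not well above background. Both deleted cultures lie above both wild type cultures for every gene, whereas the cultures with and without R-spondin lie close together.

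In all 4 genes deleted culture 1 was brighter than deleted culture 2. The second minus the first was -0.86 for Nrn1, -0.40 for Gas6, -0.94 for Npl and -1.19 for Zfp503 on the log2 scale. The wild type cultures differed by -0.43, -0.31, -0.24 and 0.05. The differences between groups were larger than the spread within either group for each of the 4 genes, which were chosen for that difference. For Zfp503 neither wild type spot was well above background, so its 0.05 does not measure a spread between cultures. Deleted culture 1 and wild type culture 1 shared slide 4, so slide and culture cannot be told apart in these spreads.

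All 4 genes had a log2 difference of at least 1 with groups that did not overlap, as did 0.938% of the 18648 probes tested (and 1.33% in the lower direction), and this follows from how they were chosen. With limma and Benjamini-Hochberg adjustment over all probes, 0.0268% of probes (5 probes) were called higher and 0.0107% lower (2 probes) at an adjusted p of 0.05. With the slide as a block in the model, 524 probes were called in place of 7, and leaving out wild type culture 1 gave 120. The probe tests thus depended strongly on how the spread of 4 arrays was modelled.

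The ratios to the reference had the same sign and were smaller. In Cy3 the reference spots of all 4 genes were not well above background on any organoid deletion array. These ratios therefore divide the same Cy5 signals by a reference that was not detected. On the log2 scale the deleted minus wild type difference was 2.34 (SE 0.26) for Nrn1, 2.13 (SE 0.22) for Gas6, 1.28 (SE 0.34) for Zfp503 and 0.44 (SE 0.20) for Npl, with n = 2 and 2. The measures were farthest apart in proportion for Npl, at 2.76 in Cy5 and 0.44 by ratio. A log2 ratio difference of at least 1 was seen in 1.56% of 17822 probes. Limma called none of these by ratio after adjustment, with 675 at an unadjusted p under 0.05. The part that the bright Cy3 background of these arrays had in the smaller ratios was not tested. When the ratio was scaled by the 75th percentile of each channel in place of loess, the 4 differences were 4.83 for Nrn1, 3.31 for Gas6, 2.35 for Zfp503 and 2.74 for Npl.

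Withdrawal of R-spondin asked whether loss of the ligand gave the same picture as loss of its receptors. Nrn1 and Gas6 differed little between the cultures. Nrn1 gave a Cy5 signal of 307.1 in the culture with R-spondin and 341 in the culture without it, a log2 difference of 0.12. Gas6 gave 5701 and 6820, a log2 difference of 0.01 after normalisation. Npl gave 437.7 with and 350.5 without R-spondin, a difference of -0.45, which points the other way from the deletion. Zfp503 was not well above background with R-spondin at 175, nor without it at 169.6, where the spot was also marked as an outlier, so it has no difference. By ratio the differences were -0.014 for Nrn1, -0.007 for Gas6 and -0.44 for Npl, where 4.22% of 24300 probes were at least 1 higher and 5.75% at least 1 lower. The Cy3 reference spot of Npl was not well above background on either array, at 135.6 with and 128.7 without R-spondin. There was 1 culture in each group and so no test.

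None of the 3 measured genes reached a log2 difference of 1 without R-spondin. Over 25191 probes, 5.16% were at least 1 higher and 6.22% at least 1 lower by Cy5, with a median of 0.055. In the same 2 cultures Lgr5, a Wnt target and stem cell marker, had median pixel signals of 6455 with and 173 without R-spondin, and the latter was not above background. The median over 4 stem cell markers was -4.41. The cultures thus differed widely in these markers. Nrn1, Gas6 and Npl lay within 0.50 on the log2 scale, as did 60.9% of the 17697 probes with values in both organoid comparisons. With the scanner's processed signals Npl lay outside that range, at -0.53 by Cy5 and -0.69 by ratio, and the series matrix also gave -0.69.

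The other probes that were higher in deleted organoids can be set beside them. Of 17697 probes with both values, 191 were at least 1 higher in the deleted organoids, and 58 of these (30.4%) were at least 1 higher without R-spondin, against 6.54% of all 17697. Their median difference without R-spondin was 0.59, against 0.067 for all. Of the 22 probes at least 2 higher in deleted organoids, 8 were at least 1 higher without R-spondin. A further 12, which include those of Nrn1, Gas6 and Npl, stayed within 0.50. That is 54.5% of the 22, where 60.9% of all 17697 probes stayed within 0.50. The 3 genes were therefore 3 of 12 such probes. These counts use different cultures on each side but the same probes and dye, and have no test.

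**Figure D2:**
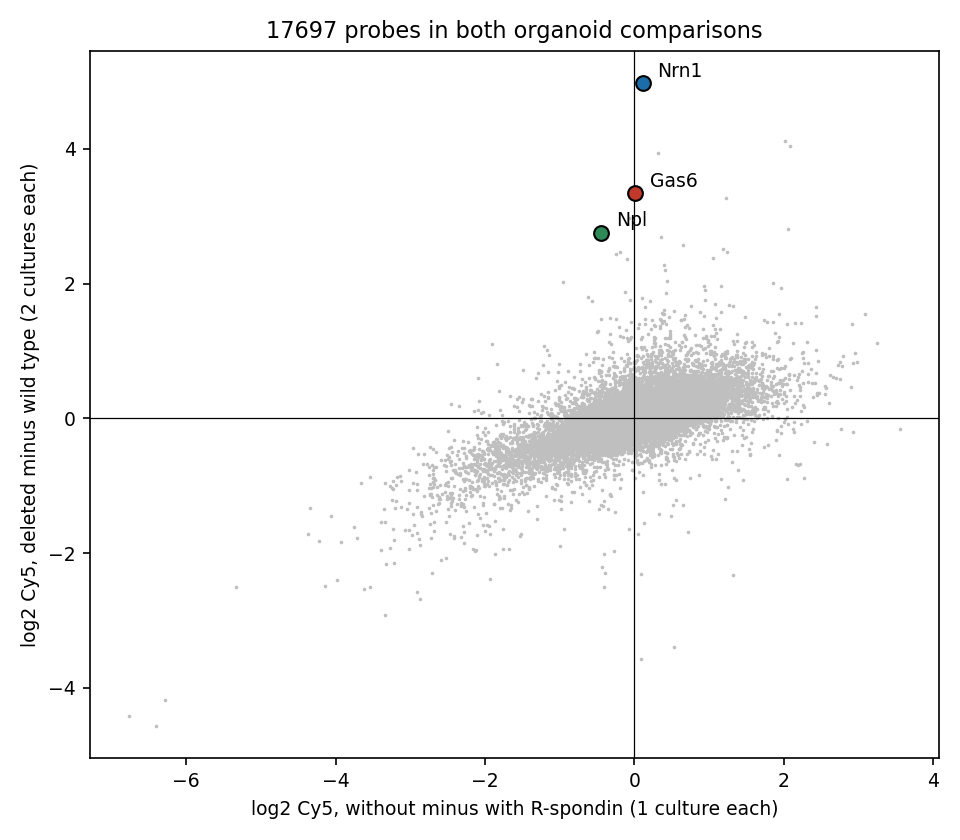
Each point is 1 of 17697 probes, by its log2 Cy5 difference without minus with R-spondin (1 culture each, x axis) and deleted minus wild type (2 cultures each, y axis). Nrn1, Gas6 and Npl sit high on the y axis and between -0.45 and 0.12 on the x axis; Zfp503 has no x value.

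The starting level of the genes differed between the sets of organoids. Gas6 stood above 91% of gene spots with R-spondin and above 91% without it, where it stood above 80.6% and 78.7% in the wild type cultures of the deletion set and above 96% and 94.9% in the deleted cultures. Nrn1 stood above 58.4% and 60.1% in the withdrawal set, near its 64.4% and 59.7% in wild type. Npl stood above 64.6% and 60.6%, against 58.9% and 56.4% in wild type and 83.5% and 77.4% in deleted cultures. The sets were on different slides, with mean pixel signals in the withdrawal set and median pixel signals in the deletion set, and the cultures' genotype and slide cannot be told apart.

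In crypts none of the 4 genes was clearly higher after deletion. Nrn1 had a mean log2 ratio of deleted to wild type of -0.58 (SE 0.23, n = 2 replicates), at -0.64 and -0.53. Its 4 arrays read -0.92, -0.36, -0.47 and -0.60, all below 0. Zfp503 averaged -0.60 (SE 0.23, n = 2), at -0.68 and -0.52, and its 4 arrays were also all below 0, from -0.76 to -0.31.

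Npl was lowest of the 4 in deleted crypts. It averaged -0.94 (SE 0.27, n = 2), at -0.57 in replicate 1 and -1.30 in replicate 2. In replicate 1 the dye-swapped arrays read 0.039 and -1.18, and on the array that read -1.18 the deleted RNA was not well above background. Replicate 2 read -1.29 and -1.31. Gas6 gave 0.66 in replicate 1 and -0.13 in replicate 2, a mean of 0.27 (SE 0.28, n = 2), so the replicates lay on opposite sides of 0. Its replicate 1 value came from a single array, since the wild type spot of the other was marked as an outlier.

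None of the 4 reached a mean of 1 or of -1 in crypts, where 1.71% of 17049 probes had a mean of at least 1 with both replicates above 0, 1.92% had a mean of -1 or less with both below 0, and limma called 0.194% in either direction. With the scanner's processed signals, and with the deposited series matrix, the Npl mean was -1.53, past -1. In crypts 7 tested macrophage and T cell markers had a median log2 ratio of 1.70 and 4 stroma and muscle markers a median of -0.93. The part of these other cells in the values of the 4 genes was not tested. Between the dye-swapped arrays of a replicate the log2 ratios had a correlation of 0.348 over 14854 probes in replicate 1 and 0.919 over 16216 probes in replicate 2, a description over probes that share both RNAs.

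**Figure D3:**
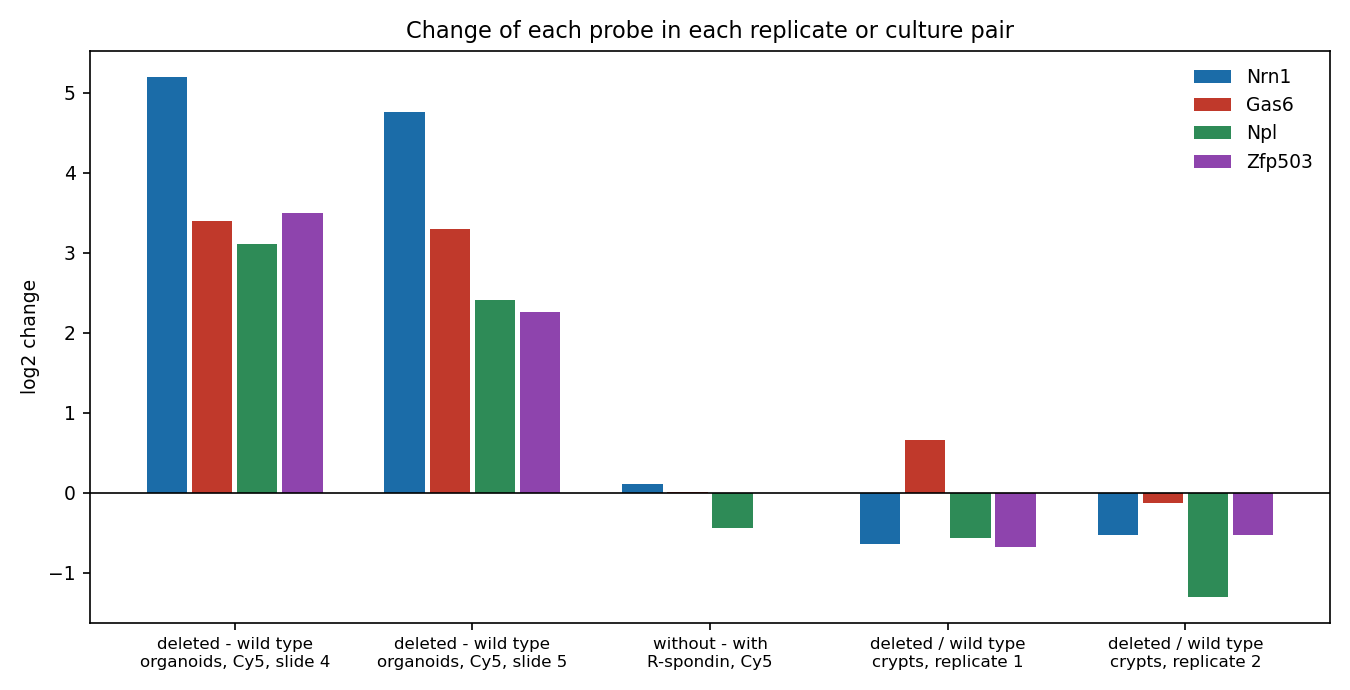
Log2 change of each gene on each organoid slide by Cy5, in the withdrawal pair by Cy5 and in each crypt replicate; each bar is 1 value, with no error bar. All 8 organoid deletion bars are above 2, whereas the withdrawal and crypt bars lie between -1.30 and 0.66, and Zfp503 has no withdrawal value.

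All 4 genes were detected in crypts. Nrn1, Gas6 and Zfp503 were well above background in 8 of 8 crypt readings (2 RNAs on 4 arrays) and Npl in 7 of 8. Zfp503 stood above 71.4% to 78.5% of gene spots in crypts and above 78.3% and 69.6% in deleted organoids, and in wild type organoids it was not well above background, so its place there has no meaning beyond that. Nrn1 stood above 74.2% to 81.6% in crypts, between its places in wild type and in deleted organoids. Gas6 stood above 93.8% to 97.1% in crypts, as high as in deleted organoids. Npl stood above 45.8% to 67.9% in crypts, which spans its wild type organoid places and lies below its deleted organoid places. Crypt isolates and organoids differ in cells, slides and dyes, and in such bulk RNA more cells of a type and more RNA per cell cannot be told apart.

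**Figure D4:**
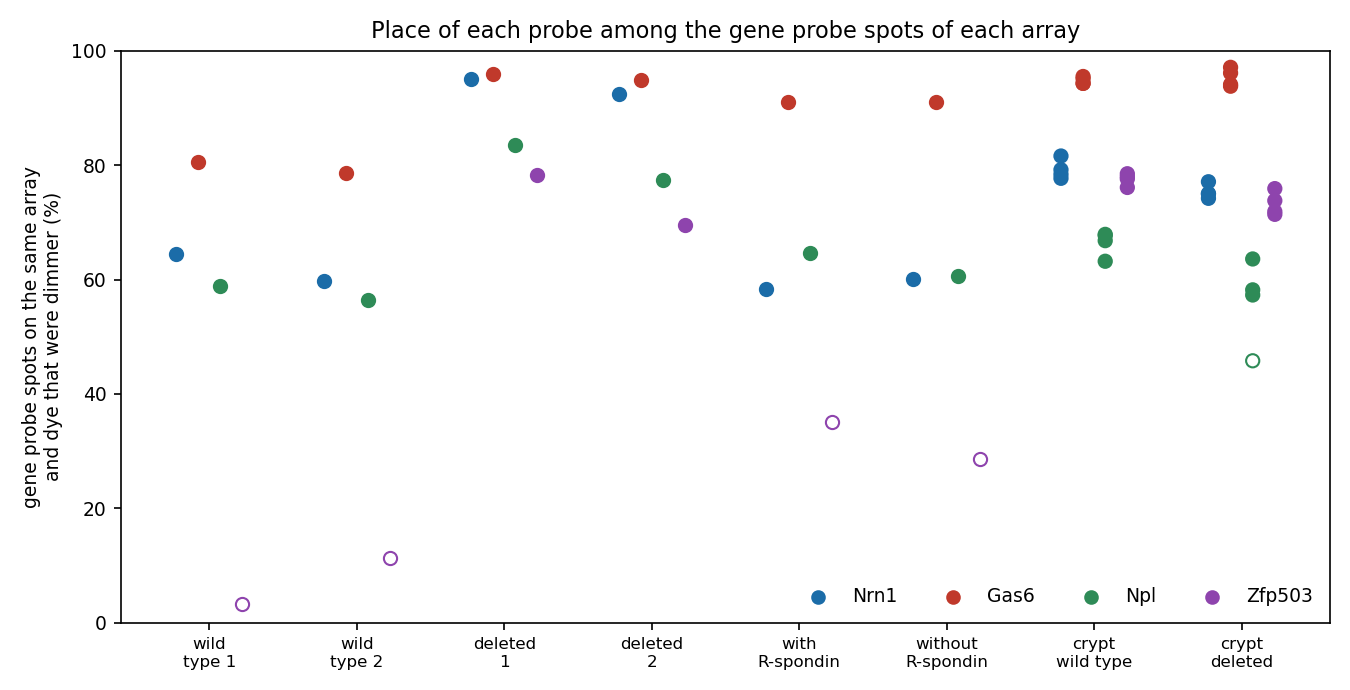
Percent of gene probe spots that were dimmer on the same array and dye, for each gene in each organoid culture and in the 4 wild type and 4 deleted crypt readings; open circles are spots not well above background. In crypts Nrn1 and Gas6 stand above their wild type organoid places in both genotypes, and Zfp503 is above background there but not in wild type organoids.

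The partners of Gas6 were on the array and differed little from wild type in most cases. Of 17 other genes of TAM signalling and vitamin K dependent carboxylation, 14 were tested in the deleted organoids by Cy5, and none passed limma's test after adjustment (1 at an unadjusted p under 0.05, where 6.93% of all probes were) or reached a log2 difference of 1. Their median was 0.089, against 0.026 for all 18648 probes. The receptor Mertk was closest, at 0.93 (SE 0.26) in Cy5 but -1.62 by ratio. The receptor Tyro3 gave 0.066 (SE 0.23) and the receptor Axl was not tested, since its probe was not above background in either group. Pros1, the other ligand of these receptors, gave 0.18 (SE 0.30). Vkorc1, which recycles vitamin K, gave 0.078 (SE 0.22), and Ggcx, the carboxylase that modifies Gas6, gave 0.10 (SE 0.22).

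Without R-spondin these genes had larger differences than Gas6. Of 15 with a value, 4 were at least 1 higher, as were 5.16% of all probes. They were the galectin Lgals3 at 2.31, Pros1 at 1.90, Mertk at 1.63 and the quinone reductase Nqo1 at 1.13. The brightest Tyro3 probe was at least 1 lower, at -1.31, as were 6.22% of all probes. Its other probes gave -0.348 and 0.212. The median over the 15 genes was 0.21. In deleted crypts none of 14 tested genes passed limma's test after adjustment, with 3 at an unadjusted p under 0.05 where 13% of all probes were, and Nqo1 had the only mean ratio of at least 1, at 1.56 (SE 0.34, n = 2).

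Genes of sialic acid metabolism had smaller differences than Npl in deleted organoids. Of 33 others, 19 were tested by Cy5, and none passed limma's test after adjustment (1 at an unadjusted p under 0.05, against 6.93% of all probes). Their median was 0.25, against 0.026 for all probes, and 11 of the 19 were above 0. The sialidase Neu3 alone exceeded 1, at 1.08 (SE 0.98), with normalised Cy5 levels of 757.4 and 171.9 in wild type and 1846 and 316.1 in deleted cultures. The groups overlap, and within slides 4 and 5 the differences were 1.29 and 0.88. The renin binding protein Renbp, an N-acetylglucosamine epimerase that acts on the sugar Npl releases, gave 0.62 (SE 0.35). Nagk, the kinase for N-acetylglucosamine, gave 0.43 (SE 0.23). The brightest probe of the sialyltransferase St6galnac2 gave -1.83 by ratio and -0.36 in Cy5, and its other probes gave 0.93 and -0.022 by ratio.

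Without R-spondin 30 of these genes had a value, with a median of -0.02. The sialyltransferase St3gal4 was higher by 1.98, and St3gal1 and St3gal3 gave -1.84 and -1.40, against the same shares of all probes. The other St3gal3 probe gave -0.496, and neither St3gal3 probe passed the background filter in the deletion set. In deleted crypts none of 18 tested passed limma's test after adjustment, with 2 at an unadjusted p under 0.05 against 13% of all probes, and St8sia4, which builds polysialic acid, had the highest mean ratio at 1.01 (SE 0.23, n = 2).

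The co-repressors listed with Zfp503 gave small differences. Of 10 listed symbols 7 were on the array and tested by Cy5 in deleted organoids. They were Tle1 to Tle5 of the Groucho family, Hdac2 and Dcaf7, with no other NET family gene among them. None passed limma's test, before adjustment (0 at an unadjusted p under 0.05) or after it, or reached 1, in a range of -0.26 to 0.38 and a median of 0.15. Without R-spondin their median was -0.42 and none reached 1 in either direction.

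Relatives of Nrn1 and neuronal activity genes also gave no call. Of 16 listed, 15 were on the array and 8 were tested in deleted organoids, with a median of -0.026, a range of -0.30 to 0.76 and none past limma's test after adjustment (1 at an unadjusted p under 0.05, against 6.93% of all probes). The paralog Nrn1l was not above background in wild type or deleted organoids. In deleted crypts 5 were tested and all 5 were above 0, with a median of 0.39 against -0.031 for all probes. None passed limma's test after adjustment, with 1 at an unadjusted p under 0.05 against 13% of all probes. The immediate early gene Fos had a mean ratio of 1.09 (SE 0.26, n = 2) in deleted crypts and a Cy5 difference of -0.089 (SE 0.32) in organoids. A crypt mean of at least 1 with both replicates above 0 was seen in 1.71% of all probes.

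Genes beside each of the 4 on the chromosome were compared after their values had been seen, taking 5 protein-coding genes with a probe on each side. Of these 40 neighbours 22 were tested in deleted organoids by Cy5, and limma called 0 after adjustment and 1 at an unadjusted p under 0.05, against 6.93% of all probes. Their log2 differences ran from -0.73 to 1.1 with a median of 0.12. The highest was Ppp1r3g, a glycogen metabolism gene 755.2 kb from Nrn1. Around Gas6 the 6 tested neighbours lay between -0.62 and 0.57, around Npl 5 lay between -0.68 and 0.48, and around Zfp503 4 lay between -0.062 and 0.35. The nearest gene on either side of Gas6 and of Zfp503 was not tested, and the 4 genes themselves had been chosen for high values.

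**Figure D5:**
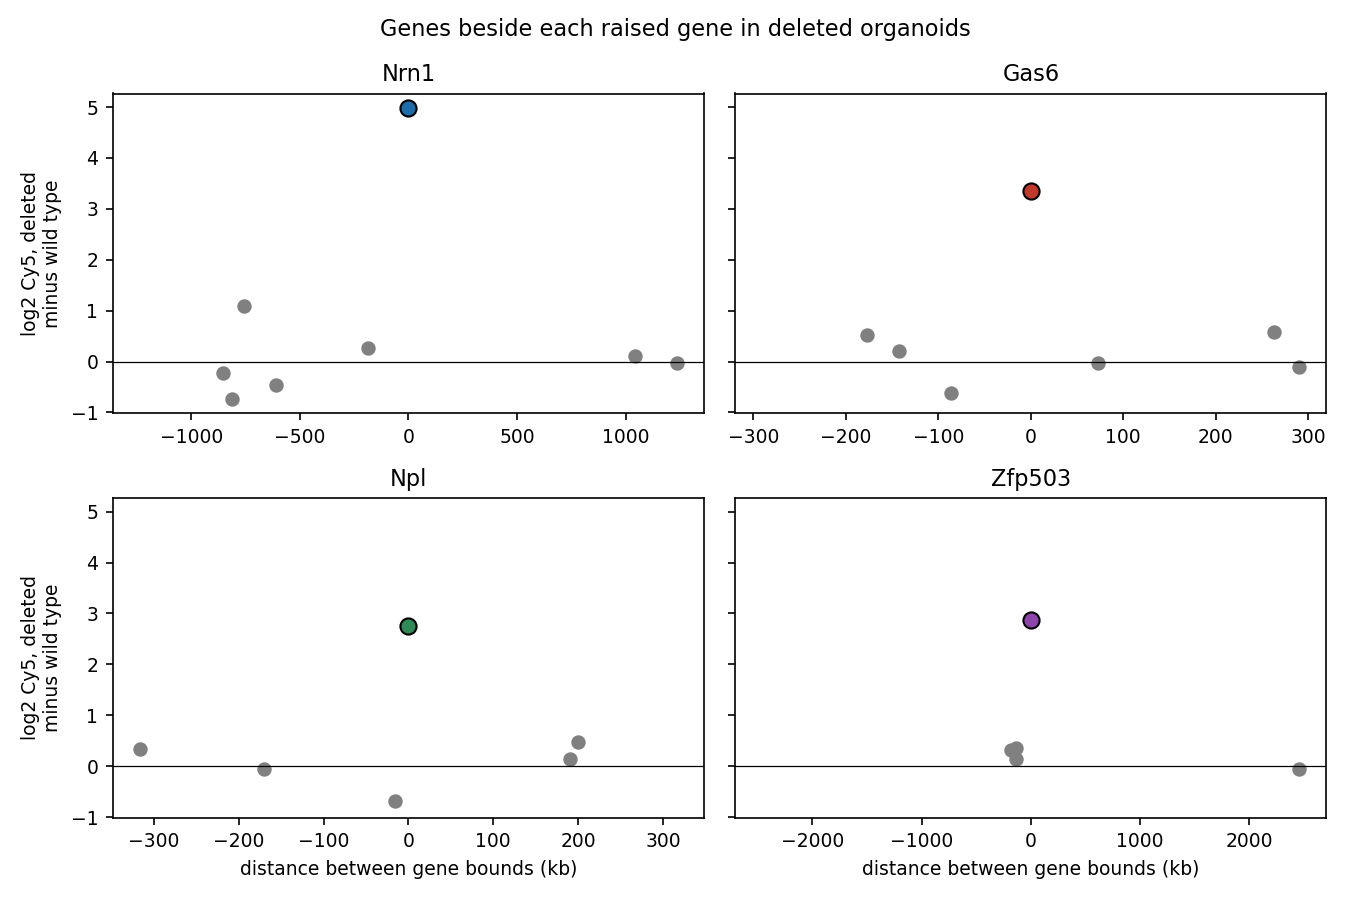
Log2 Cy5 difference, deleted minus wild type organoids, of each gene (coloured) and its tested neighbours (grey) by distance between gene bounds in kb, with negative distances towards lower coordinates. The 22 neighbours lie between -0.73 and 1.1, below all 4 genes.

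Promoter windows of 300 bases around the gene start were in the RefSeq table (GRCm38.p6) for Gas6, Npl and Zfp503. Each was searched on both strands for 3 forms of the motif that TCF and LEF factors, the DNA-binding partners in Wnt signalling, are known to bind. The first form was CTTTGAT, which 3.73% of all 32851 windows in the table held. The second was CTTTGTT, held by 5.85%, and the last was CTTTGAA, held by 5.14%. The Zfp503 window held the last form once, on the reverse strand, and the other windows held none of the forms. At least 1 form was present in 13.9% of all windows. The match is a description of letters and was not tested for binding. The window, chr14:21989552-21989851 on the minus strand, is printed because it is the only match, with the matched bases in capitals.
Zfp503 promoter: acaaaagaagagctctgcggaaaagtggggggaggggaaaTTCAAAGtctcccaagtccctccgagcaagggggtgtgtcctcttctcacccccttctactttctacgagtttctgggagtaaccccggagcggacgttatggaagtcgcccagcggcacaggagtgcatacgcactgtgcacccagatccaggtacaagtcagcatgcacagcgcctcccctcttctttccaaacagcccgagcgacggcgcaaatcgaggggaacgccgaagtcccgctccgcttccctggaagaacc

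The 3 windows were 61% (Npl), 58.3% (Gas6) and 58.3% (Zfp503) GC, where all windows had a median of 52.7% and quartiles of 45.7% and 61.7%.

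The genes most like each of the 4 were found by the smallest Euclidean distance over 5 log2 differences, the 2 organoid slides, the withdrawal pair and the 2 crypt replicates, among 17221 probes. Dusp16, a phosphatase that acts on MAP kinases, was nearest to both Nrn1 (distance 1.73) and Gas6 (distance 1.21). Its probe A_51_P242634 gave 4.31 and 3.58 on the organoid slides, 0.31 without R-spondin, and 0.017 and 0.043 in crypts. A second Dusp16 probe gave 0.073 in deleted organoids, so that pattern belongs to 1 of its probes. H2-Bl, a class I histocompatibility gene, and Gas6 itself followed for Nrn1, at distances of 2.62 and 2.69. Kbtbd11 and Myh7 followed for Gas6, at 1.25 and 1.48.

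Npl was nearest to the probe for Gt(ROSA)26Sor (distance 1.19), the transcript of the Rosa26 locus. That probe gave 2.80 and 1.75 on the organoid slides, 0.39 without R-spondin, and -0.68 and -1.74 in crypts. Aspg, an asparaginase, followed at 1.53 and Cul9, of the cullin family, at 1.70. Zfp503 has no withdrawal value and so no nearest genes. These distances describe 5 values per probe and mix comparisons of different spread.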

How the data were processed

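Per the file headers, the deposited scanner files hold spot intensities from Agilent Feature Extraction 10.5.1.1, where the submitters' processing notes name 8.5.1.1. The authors' deposited series matrix holds log10 ratios, which served as an alternative. Spots marked as outliers were left out, intensities were corrected by normexp (offset 50) in limma 3.58.1 (R 4.3.3, data.table version 1.17.8), and log2 values were normalised by quantile in Cy5 or by loess for ratios. In crypts every array's ratio was set as deleted over wild type, and both dye swaps of a replicate were averaged. Probes well above background on all arrays of at least 1 group were fitted with lmFit and eBayes, and adjusted by Benjamini-Hochberg over all probes. The fits were also run on simulated data with equal and independent noise on every array. Those data leave out the correlation between cultures on a slide given below, so they do not test its effect on the calls. Called means an adjusted p under 0.05 and, for the withdrawal, a log2 difference of 1. No gene spot was saturated. The number of arrays limits the precision. Slides 4 and 5 each held 1 culture of each group; deviations from the group means of cultures on the same slide correlated at 0.535 over 18648 probes. The 4 genes and the gene lists were chosen with earlier results of these data known, and list genes are counted by their brightest tested probe. Named genes are the 4, list genes with a change of 1 or more, list genes with a named role, and the 3 nearest genes; those named for their role were picked after their values were seen. The result of 1 marker list, for enteric neuron and glia, is not reported here.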

Additional observations from a re-analysis of the deposited data

Results flagged for a closer look

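Nrn1, Npl and Zfp503 were higher on both organoid slides and lower in both crypt replicates after deletion. Nrn1 gave 4.98 in organoids by Cy5 and -0.58 in crypts on the log2 scale. Npl gave 2.76 and -0.94, and Zfp503 gave 2.88 and -0.60. The difference between organoids and crypts was not tested, and the genes had been chosen for being higher in deleted organoids and not in crypts.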

How the results depend on the processing

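The organoid Cy5 differences of the 4 genes kept their sign in all 9 alternatives, at 3.96 to 5.41 for Nrn1, 2.60 to 3.55 for Gas6, 2.21 to 3.23 for Npl and 2.17 to 3.59 for Zfp503. By ratio they kept it in all 10, with Npl at 0.34 to 2.74. Leaving out 1 culture or taking 1 slide alone reuses the same values, whose groups did not overlap. Those alternatives could not change a sign. Only the other alternatives could have done so, and the genes were chosen for this difference. The crypt value of Gas6 was -0.13 without replicate 1 and 0.66 without replicate 2. Counts of called probes moved far more. With the scanner's processed signals they were 96 by Cy5 (47 lower, 49 higher), 17 by ratio and 463 in crypts, and 4660 passed a log2 difference of 1 without R-spondin, in place of 7, 0, 33 and 2866. The series matrix gave 18 by ratio and 463 in crypts. Scaling by the 75th percentile gave 25 by Cy5 (14 lower, 11 higher) and 283 in crypts, and median pixel signals gave 97 in crypts. With marked spots kept, 2 were called by Cy5, and with no filter on dim probes 2 by Cy5 and 0 in crypts by limma. The slide as a replicate block gave 524 by Cy5 and 0 by ratio. Leaving out 1 culture, whose group's lone sample is then assumed to vary like the other group, gave 4 to 120 by Cy5 and 0 to 208 by ratio, the highest without wild type culture 1. Taking the brightest probe of each gene, chosen after seeing the data, gave 5 in crypts. The cause of these shifts was not tested. Leaving out a crypt replicate left 1 value and no test. Zfp503 in wild type organoids is limited by signal over background.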
